A study of Homo sapiens with 4 samples.

Results

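Replication timing was examined at the loci of 10 genes listed for intestinal epithelial identity: CDX1, CDX2, HNF4A, GATA6, KLF5, SOX9, LGR5, VIL1, EPCAM and CDH1. A locus was the hg19 gene with 200 kb on each side, and its members were the bins of 80 kb that overlapped it. All 10 loci had every bin, 66 of the 27704 bins in the table, and each locus held 6 to 8. The bins came from single-cell replication sequencing, which reads in 1 cell which stretches of DNA have already been copied. S-phase cells of HCT116, a human colorectal cancer line (322 cells), were compared with S-phase cells of DKO1 (207 cells). DKO1 is the HCT116 derivative with disrupted genes for DNMT1 and DNMT3B. DNMT1 maintains DNA methylation through replication, and DNMT3B can methylate new sites. Any DNMT protein left in DKO1 was not measured here. Cells sorted by DNA content as early, mid and late were pooled in equal numbers. Both lines were grown alike in McCoy's 5A medium with serum. DKO1 is 1 derived line and each line gave 1 S-phase library, so there was no replicate and no test between the lines. No barcode occurred in both libraries.

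The genome is copied in a set order during S phase, with active, gene-rich domains copied early and gene-poor, silent domains late, and the domains are joined by slopes over which a fork travels. In intestinal epithelium, transcription factors such as CDX2 and HNF4A hold the gut programme in place, crypt stem and progenitor cells carry LGR5 and SOX9, and the differentiated cell relies on E-cadherin, EPCAM and villin for its shape and adhesion. The assay read DNA and no RNA, so the activity of these genes was not measured.

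The table gives a state code per bin and cell. Code 2 was read as replicated, code 1 as unreplicated and code 0 as uncalled, a reading under which chromosomes 22 and 17 had high shares of replicated bins (79.8 and 73.1% in HCT116) and chromosome 13 a low one (38.1%). Progress through S phase was taken, for every cell, as the replicated percent among called bins. Distances are from the middle of a gene and negative to its left. Well-called cells are those with code 0 at 1% of bins or less (227 HCT116 and 65 DKO1 cells). Their standardised shares cover the strata from 30 to 70% only, with 187 and 60 of these cells. Over all S-phase cells the median progress was 52.7% in HCT116 (range 17.3 to 77.6%) and 48.8% in DKO1 (9.49 to 78.5%). The standardised share of a locus is the percent of cells in which its bins were replicated, averaged over 6 strata of progress from 20 to 80%, so that both lines are read at the same point of S phase. The strata held 19 to 82 HCT116 cells and 10 to 53 DKO1 cells. Counts of cells and their exact binomial (Clopper-Pearson) 95% intervals were not matched in progress unless a stratum is named, and the intervals cover counting error of cells only. In these counts a locus was replicated in a cell when more than 50% of its called bins were, and cells with a tie or with under 50% of the bins called were left out. The reads behind each call are unknown, and a call does not tell the copies of a chromosome apart.

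The loci spread over most of S phase in HCT116, and SOX9 stood apart from the rest. In HCT116 the standardised shares ran in the order VIL1 (98.2%), EPCAM (97.7%), CDX1 (93.0%), HNF4A (92.0%), CDH1 (85.4%), LGR5 (65.9%), KLF5 (63.7%), GATA6 (56.4%), CDX2 (52.7%) and SOX9 (23.0%). The intervals of the cell counts of neighbours in this order overlapped except between CDH1 and LGR5 and between CDX2 and SOX9. In DKO1 the order was CDH1 (94.7%), VIL1 (94%), EPCAM (92.4%), HNF4A (85.6%), CDX1 (84.4%), LGR5 (70.2%), GATA6 (59.3%), SOX9 (58.2%), KLF5 (53.0%) and CDX2 (42.1%). Neighbours overlapped there except between EPCAM and HNF4A, between LGR5 and GATA6 and between KLF5 and CDX2. SOX9, last of the 10 in HCT116, thus lay among the loci of mid S phase in DKO1, and CDH1 was the fifth in HCT116 and the first in DKO1. The first place of CDH1 was not stable: in well-called DKO1 cells its share was 96.4%, behind VIL1 (100%) and EPCAM (99.1%). For all DKO1 cells from 30 to 70% progress, EPCAM (97.0%) and CDH1 (96.8%) lay close together.

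**Figure D1:**
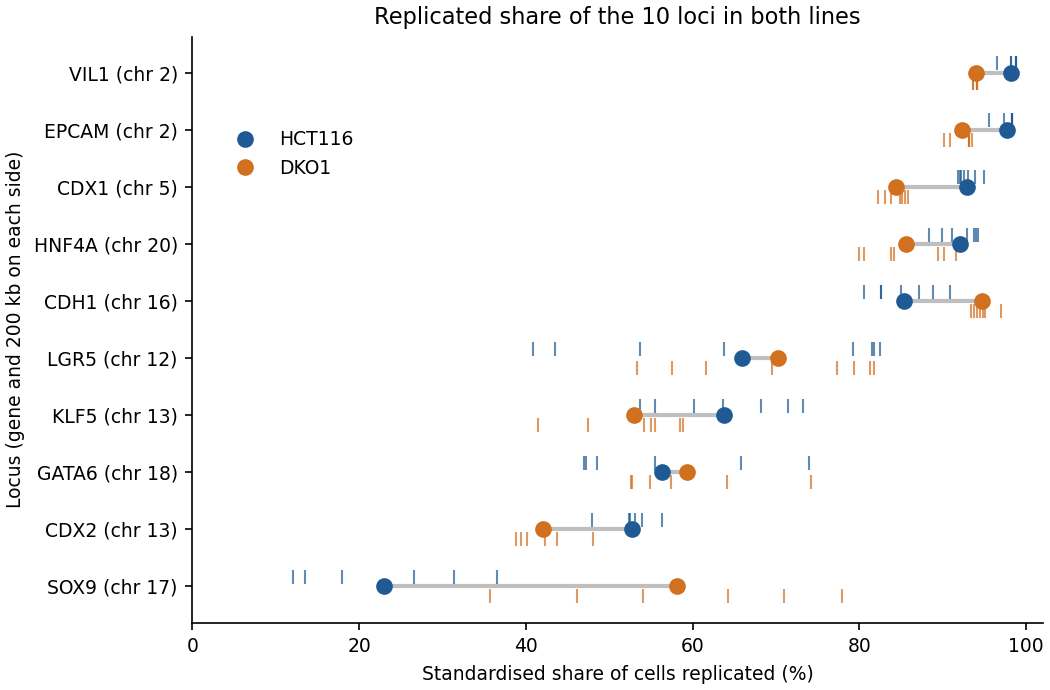
Standardised share of cells replicated (x axis, %) at each locus (y axis). Dots are the mean over the bins of the locus in HCT116 (blue) and DKO1 (orange), and ticks are single bins of 80 kb. SOX9 has the longest line between its dots, from 23.0 to 58.2%, and its bins hardly overlap between the lines, while the dots of GATA6, VIL1 and LGR5 lie close together.

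The share was higher in DKO1 at 4 loci and lower at 6, against 12924 windows of 5 bins higher and 12771 lower over the genome. A difference of at least 10 percentage points in DKO1's favour was seen at 1 of 10 loci, SOX9 (35.2 points), against 14.0% of all 25700 windows of 5 consecutive bins in the genome. A difference of at least 10 points the other way was seen at 2 of 10, KLF5 (-10.7) and CDX2 (-10.6), against 14.3% of windows. These counts are near the background, and the list as a whole did not stand out by them. CDH1 (9.28 points) and CDX1 (-8.58) lay just under that size. The median difference was -4.81 points over the 10 loci and 0.0409 over all windows, and the median size without regard to sign was 7.48 and 5.68 points. SOX9 lay in the far tail: 0.106% of the 25387 windows of its own length had a difference as high. These windows overlap each other and include the SOX9 locus itself. SOX9 was singled out here as the largest of the 10 differences, so this percent is a description only.

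**Figure D2:**
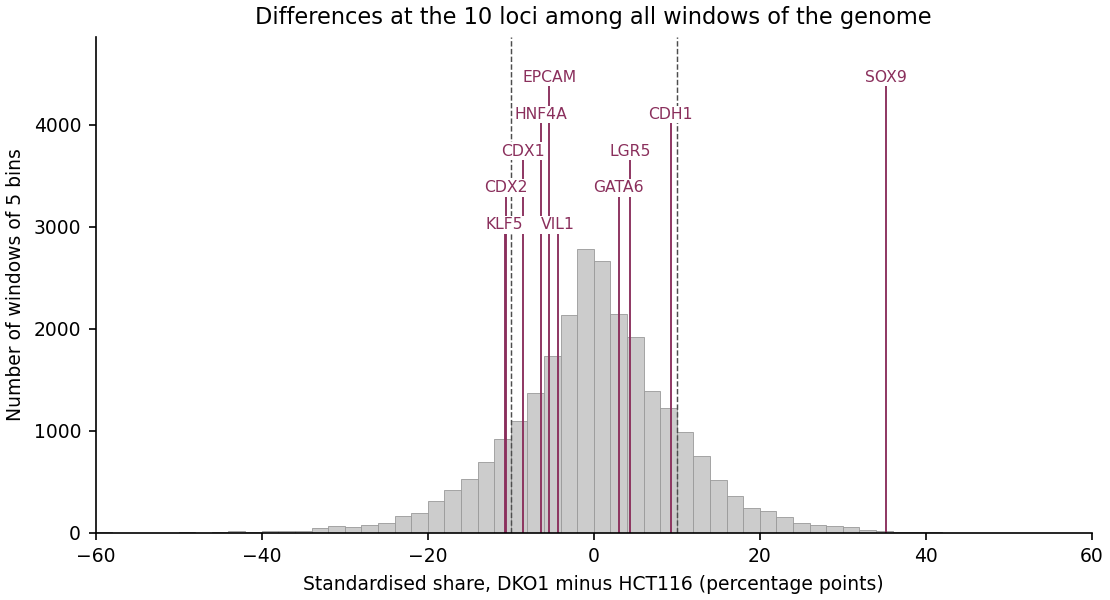
Number of windows of 5 bins in the genome (y axis) by the difference in standardised share, DKO1 minus HCT116 in percentage points (x axis, grey bars), with each locus, of 6 to 8 bins, as a labelled line. Dashed lines mark differences of 10 points. SOX9 lies at 35.2 points in the far right tail, and the other 9 loci lie within the body of the distribution, from -10.7 to 9.28 points.

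The caudal-type homeobox genes CDX1 and CDX2, which direct intestinal identity in the gut endoderm, were both replicated in fewer DKO1 cells, but from different parts of S phase. CDX1 was early. It was replicated in 303 of 320 cells of HCT116 (94.7%, interval 91.6 to 96.9%) and in 177 of 202 of DKO1 (87.6%, 82.3 to 91.8%), and its standardised share was 93.0 and 84.4%. The deficit was spread evenly over S phase: in DKO1 the locus was replicated in 35 of 41 cells at 30 to 40% progress and still in only 34 of 39 at 60 to 70%, against 46 of 48 and 78 of 81 in HCT116. DKO1 was lower in all 6 strata, and 11 of its 25 cells without CDX1 replication had passed 50% progress. These 25 cells had code 0 in a median of 1.60% of bins, against 2.03% in the 177 others. In HCT116 the 17 cells without CDX1 replication had a median of 2.60% and the 303 others 0.27%. No called bin within 1 Mb of CDX1 was replicated in 8 of these 17 HCT116 cells and in 9 of the 25 DKO1 cells. In well-called cells the standardised difference was -12 points, against -9.0 for all cells of the same strata.

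CDX2 lay in mid S phase, on a slope that descends from an early domain at -740 kb (share 86.6% in HCT116, 77.7% in DKO1). In HCT116 none of 44 cells at 30 to 40% progress had replicated it, which allows a share of up to 6.82%. It was replicated in 22 of 52 cells at 40 to 50%, 51 of 72 at 50 to 60% and 74 of 77 at 60 to 70%. In DKO1 the corresponding counts were 5 of 41, 13 of 46, 17 of 35 and 32 of 38, so a few cells replicated it sooner and many later. A logistic curve of the locus call against progress passed 50% at 49.7% progress in HCT116 and 54.1% in DKO1, and its width from 25 to 75% was 10.4 and 18.9 points. In well-called cells the 50% points lay closer, at 50.4 and 52% progress. Over all cells, not matched in progress, it was replicated in 166 of 298 (55.7%, 49.9 to 61.4%) and 74 of 180 (41.1%, 33.8 to 48.7%), intervals that did not overlap. The standardised shares, matched in progress, lay closer, at 52.7 and 42.1%. Along the slope, the share passed 50% at 184 kb from CDX2 in HCT116 and at -208 kb in DKO1. The HCT116 share was nearly flat just above 50% there, with 53.2% at -100 kb and 52.5% at 140 kb. The distance between these 2 points therefore does not measure a shift of the slope. CDX2 sits next to PDX1, the pancreatic and duodenal homeobox gene, in the RefSeq gene order of GRCh38.p14.

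KLF5, a zinc finger transcription factor of proliferating crypt cells, lay at a local summit of the timing profile in both lines. In HCT116 the share climbed from 11.8% at -1040 kb to 73.3% in the bin that holds it, and dropped to 32.2% at 1040 kb. In DKO1 the summit lay in the same bin and reached 58.8%. The run of bins with a difference of at least 10 points extended from 72960001 to 73760000 on chromosome 13 (hg19, 10 bins), where the mean share was 52.2% in HCT116 and 39.8% in DKO1. It covered the left flank of the summit, whereas on the right flank the lines crossed, with a highest difference of 7.82 points at 480 kb. KLF5 was replicated in 216 of 315 cells of HCT116 (68.6%, 63.1 to 73.7%) and in 118 of 201 of DKO1 (58.7%, 51.6 to 65.6%). The intervals overlapped. The curve against progress passed 50% at 41.0 and 42.9% progress (39.3 and 39.7% in well-called cells), and the widths were 18.8 and 41.5 points: in DKO1 KLF5 was replicated in 3 of 9 cells at 20 to 30% and in 32 of 40 at 60 to 70%, against 6 of 33 and 74 of 80 in HCT116.

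CDX2 and KLF5 are both on chromosome 13, whose replicated share lay over 15 points off the value fitted from progress in 4.66% of the HCT116 and 11.1% of the DKO1 cells. Without such cells the differences were -9.09 points at CDX2 and -9.13 at KLF5. Chromosome 13 as a whole was 2.92 points higher in DKO1. Code 0 was frequent at both loci, with 1.55 and 3.78% of the calls at CDX2 and 2.22 and 3.04% at KLF5, in HCT116 and DKO1 in turn. In well-called cells the difference was -8.07 points at CDX2 and -4.59 at KLF5, against -8.78 and -8.31 for all cells of the same strata.

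GATA6, a zinc finger factor of the endoderm, lay in a trough between earlier domains, and it was replicated over a wider span of progress in DKO1. Its standardised shares were 56.4 and 59.3%, and 171 of 295 cells (58.0%, 52.1 to 63.7%) and 110 of 193 (57.0%, 49.7 to 64.1%) had replicated it. In HCT116 replication came abruptly, in 3 of 40 cells at 30 to 40% progress, 14 of 54 at 40 to 50% and 60 of 71 at 50 to 60%. In DKO1 it came gradually, in 10 of 39, 25 of 49 and 33 of 46 cells. The lines therefore crossed, with DKO1 higher in the 3 strata below 50% and lower in the 3 above, and the width was 10.6 points in HCT116 and 27.2 in DKO1. Among cells with a mixed locus, a single step with the left side replicated was the usual form, in 93 of 110 cells of HCT116 and in 58 of 73 of DKO1. The difference in standardised share was 3.0 points, and it ranged over the alternative settings from -0.24, without the stratum from 20 to 30%, to 6.93, without the stratum from 70 to 80%. The 50% points were 49 and 45.3% progress, and 48.5 and 47.3% in well-called cells.

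The RefSeq promoter table held 4 of the 10 genes. Since DNMT1 and DNMT3B act on cytosines that precede a guanine, the 250 bases before the start are shown for the genes of mid S phase, 5′ to 3′ on the gene's strand, with CG in capitals. They show how far such sites differ in number between genes of similar timing. KLF5 is listed with 2 starts. A bin of 80 kb does not resolve a promoter, and the methylation of these bases was not measured here.
CDX2: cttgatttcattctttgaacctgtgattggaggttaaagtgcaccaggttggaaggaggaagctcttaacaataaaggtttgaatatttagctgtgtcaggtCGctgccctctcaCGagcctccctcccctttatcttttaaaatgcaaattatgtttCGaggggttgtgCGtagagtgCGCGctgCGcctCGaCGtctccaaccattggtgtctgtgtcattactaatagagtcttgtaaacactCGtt
KLF5, the left start: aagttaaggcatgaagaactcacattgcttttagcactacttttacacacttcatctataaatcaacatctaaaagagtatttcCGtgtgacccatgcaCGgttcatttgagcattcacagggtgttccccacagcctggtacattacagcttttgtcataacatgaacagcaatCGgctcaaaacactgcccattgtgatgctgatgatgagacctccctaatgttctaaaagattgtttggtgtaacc
KLF5, the right start: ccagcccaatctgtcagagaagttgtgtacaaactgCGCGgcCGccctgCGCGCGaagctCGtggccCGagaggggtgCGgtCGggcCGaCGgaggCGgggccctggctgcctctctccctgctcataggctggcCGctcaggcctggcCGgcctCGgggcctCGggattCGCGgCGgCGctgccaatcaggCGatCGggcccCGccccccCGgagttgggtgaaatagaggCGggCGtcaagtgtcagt
GATA6: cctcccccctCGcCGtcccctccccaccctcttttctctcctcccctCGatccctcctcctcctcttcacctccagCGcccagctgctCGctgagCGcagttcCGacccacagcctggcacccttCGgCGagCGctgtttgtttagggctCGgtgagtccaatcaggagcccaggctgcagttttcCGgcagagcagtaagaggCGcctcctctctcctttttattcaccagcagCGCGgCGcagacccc

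In GRCh38.p14, a different build from that of the bins, these windows are chr13:27969316-27969565 on the minus strand for CDX2, chr13:73054726-73054975 and chr13:73058755-73059004 on the plus strand for KLF5, and chr18:22169339-22169588 on the plus strand for GATA6. Searched as CG, which reads the same on both strands, they held 10 in CDX2, 3 and 27 in KLF5 and 16 in GATA6. The median of all 35116 promoter windows was 11. At least as many were found in 52.2% of them for CDX2, in 77.1 and 17.7% for the left and right starts of KLF5, and in 41.0% for GATA6. The 2 starts of KLF5 share a locus and hence a replication value, although they lie at opposite ends of this range.

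HNF4A, a nuclear receptor of gut and liver epithelium, was early in HCT116 and unreplicated in more of the DKO1 cells. It was replicated in 305 of 322 cells of HCT116 (94.7%, 91.7 to 96.9%) and in 175 of 202 of DKO1 (86.6%, 81.2 to 91.0%), and these intervals did not overlap. The standardised shares were 92.0 and 85.6%, a difference of -6.39 points. In well-called cells the standardised difference was -4.39 points, against -7.44 for all cells of the same strata. HNF4A was replicated in 94.3% of the well-called HCT116 cells and 89.2% of those of DKO1, so that the gap was -5.04 points against -8.09 with all cells. The gap lay in the first part of S phase: at 40 to 50% progress the locus was replicated in 58 of 60 cells of HCT116 (96.7%, 88.5 to 99.6%) and in 40 of 53 of DKO1 (75.5%, 61.7 to 86.2%). Above 50% progress all 97 DKO1 cells called at the locus had replicated it. The difference was not even along the locus. The leftmost bin had 88.4% in HCT116 and 80% in DKO1, and the rightmost 94.3 and 91.6%. Among DKO1 cells with a mixed locus, 25 of 34 had a single step with the right side replicated and 2 the reverse.

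SOX9, an HMG-box factor of crypt stem and progenitor cells and of Paneth cells, was replicated late in HCT116 and in mid S phase in DKO1. Its locus lay on chromosome 17 from 69840001 to 70320000 (hg19). It was replicated in 44 of 291 cells of HCT116 (15.1%, 11.2 to 19.8%) and in 109 of 190 of DKO1 (57.4%, 50 to 64.5%). In HCT116 none of 60 cells at 40 to 50% progress had replicated it, which allows a share of up to 5%. The count was 8 of 72 at 50 to 60%, 22 of 62 at 60 to 70% and 13 of 16 at 70 to 80%. In DKO1 it was 11 of 40 already at 30 to 40%, then 22 of 45, 30 of 48 and 35 of 39 in the strata from 40 to 70%, and 9 of 9 at 70 to 80%. DKO1 was higher in all 6 strata, and in the 4 strata from 30 to 70% the intervals of the lines did not overlap.

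The curve of SOX9 against progress passed 50% at 67.1% in HCT116 and 44.9% in DKO1, 22.2 points sooner, and its width was 12.2 and 23.9 points. The first HCT116 cell to have replicated the locus stood at 34.0% progress and the last without it at 70.6%, and in DKO1 these were at 26.9 and 67.4%. Among windows of the same length the SOX9 locus ranked above 31.7% in HCT116 and above 58.9% in DKO1. Chromosome 17 as a whole differed by 0.42 points, and code 0 took none of the HCT116 calls and 0.564% of the DKO1 calls at the locus. In well-called cells the difference was 43.2 points, against 38.7 for all cells of the same strata, and under all 11 alternative settings it was at least 29.3.

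The profile around SOX9 shows the shape of this difference. From left to right the 6 bins of the locus had shares of 12.1, 13.6, 17.9, 26.6, 31.3 and 36.5% in HCT116, and of 35.7, 46.2, 54.0, 64.2, 70.9 and 78.0% in DKO1. SOX9 itself lies in the bin with 26.6 and 64.2%. In both lines the locus was a slope that climbs to the right, and the slope lay farther to the left in DKO1. The share passed 50% at 255 kb from the gene in HCT116 and at -121 kb in DKO1, and these points lay 376 kb apart. At -880 kb both lines were late, with 6.97 and 8.63%, and at 960 kb both were early, with 90.3 and 83.9%. The run of bins with a difference of at least 10 points extended from 69600001 to 70480000 (11 bins), where the mean share was 25.1% in HCT116 and 52.7% in DKO1. To its right no bin was in use for 560 kb, so the right end of the run is not known. SOX9 lies between KCNJ2 and SLC39A11 in the RefSeq order of protein-coding genes.

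Single cells showed the slope as a step. The SOX9 locus was partly replicated in 96 of 322 cells of HCT116 (29.8%) and in 94 of 206 of DKO1 (45.6%). In 94 of these 96 and in all 94 of those, there was 1 step with the right side replicated. The step thus had 1 direction in nearly every such cell of either line. Where every called bin of the locus had to be replicated, 7.45% of HCT116 and 30.1% of DKO1 cells qualified, a difference of 22.6 points.

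LGR5, the R-spondin receptor that marks crypt base stem cells, lay across a slope like SOX9 but differed little. It was replicated in 214 of 281 cells of HCT116 (76.2%, 70.7 to 81%) and in 151 of 188 of DKO1 (80.3%, 73.9 to 85.7%), and the standardised shares were 65.9 and 70.2%. The difference lay on the left side of the locus. The 2 leftmost bins had 40.9 and 43.5% in HCT116 and 53.3 and 57.6% in DKO1, while the 4 rightmost bins lay within 2.15 points of each other. The curve passed 50% at 37.6 and 33.6% progress, and the widths of 17.4 and 17.6 points were alike. The widths at CDX2, GATA6, KLF5 and SOX9 were all larger in DKO1. Widths over the rest of the genome and in well-called cells are not given here. A trait of these loci thus cannot be told apart from a wider spread of the DKO1 calls as a whole. Of 160 HCT116 cells with a mixed LGR5 locus 139 had 1 step with the right side replicated, and of 80 DKO1 cells 64. Farther right, where both lines were later, the profiles parted again, with 5.23 and 26.3% at 1095 kb. In well-called cells the difference was 13.5 points (68.2 and 81.7%), against 7.44 for all cells of the same strata, and the median of code 0 was 3.28% in the 37 DKO1 cells with LGR5 unreplicated against 1.83% in the 151 others.

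**Figure D3:**
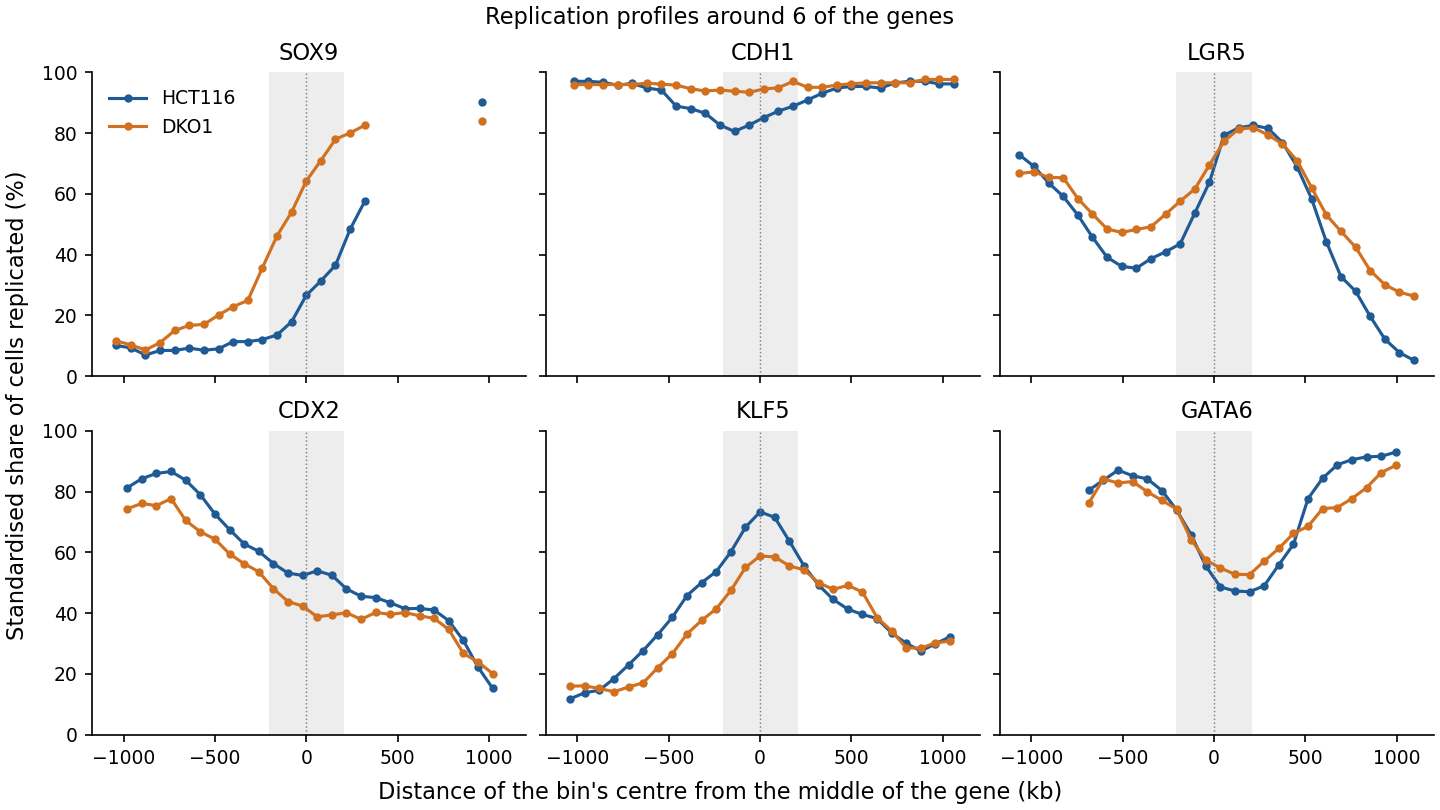
Standardised share of cells replicated (y axis, %) per bin of 80 kb against distance from the middle of the gene (x axis, kb) in HCT116 (blue) and DKO1 (orange) for 6 genes. The grey band spans 200 kb on each side of the middle, and lines break where bins are missing. The slope at SOX9 lies to the left in DKO1, the shallow dip at CDH1 in HCT116 is absent in DKO1, and the summit at KLF5 is lower in DKO1 (58.8 against 73.3%).

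CDH1, which encodes E-cadherin of the adherens junctions, was replicated sooner in DKO1. It was replicated in 288 of 322 cells of HCT116 (89.4%, 85.6 to 92.6%) and in 197 of 201 of DKO1 (98%, 95 to 99.5%), and the intervals did not overlap. The difference belonged to the first part of S phase: 18 of 33 HCT116 cells had replicated it at 20 to 30% progress and 37 of 48 at 30 to 40%, against 10 of 11 and 40 of 40 DKO1 cells. From 40% on, both lines had replicated it in nearly every cell. Along the profile HCT116 had a shallow dip at the gene, from 97% at -1020 kb down to 80.5% at -140 kb and up to 96.2% at 1060 kb. In DKO1 no bin of this stretch was below 93.4%. The difference of 9.28 points leaned on the sparse stratum from 20 to 30% and was 3.78 without it. It was 2.53 in well-called cells, against 5.64 for all cells of the same strata. Code 0 took none of the HCT116 and 2.90% of the DKO1 calls at CDH1, and chromosome 16 as a whole was 3.49 points higher in DKO1.

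VIL1, which encodes the actin-bundling villin of the brush border, and EPCAM, an epithelial adhesion molecule, were the earliest loci in HCT116 and remained early in DKO1. VIL1 was replicated in 313 of 317 cells of HCT116 (98.7%, 96.8 to 99.7%) and 194 of 204 of DKO1 (95.1%, 91.2 to 97.6%). EPCAM was replicated in 314 of 321 (97.8%, 95.6 to 99.1%) and 194 of 202 (96%, 92.3 to 98.3%). The intervals overlapped at both loci. All 10 DKO1 cells without VIL1 replication and all 8 without EPCAM replication were unreplicated in every called bin within 1 Mb of the gene, and code 0 took a median of 5.72 and 8.06% of the bins of these cells. In the DKO1 cells with the locus replicated it took 1.91 and 1.87%. The standardised shares differed by -4.29 points at VIL1 and -5.34 at EPCAM. In well-called cells these differences were 0.11 and -0.60, against -2.86 and -1.09 for all cells of the same strata.

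**Figure D4:**
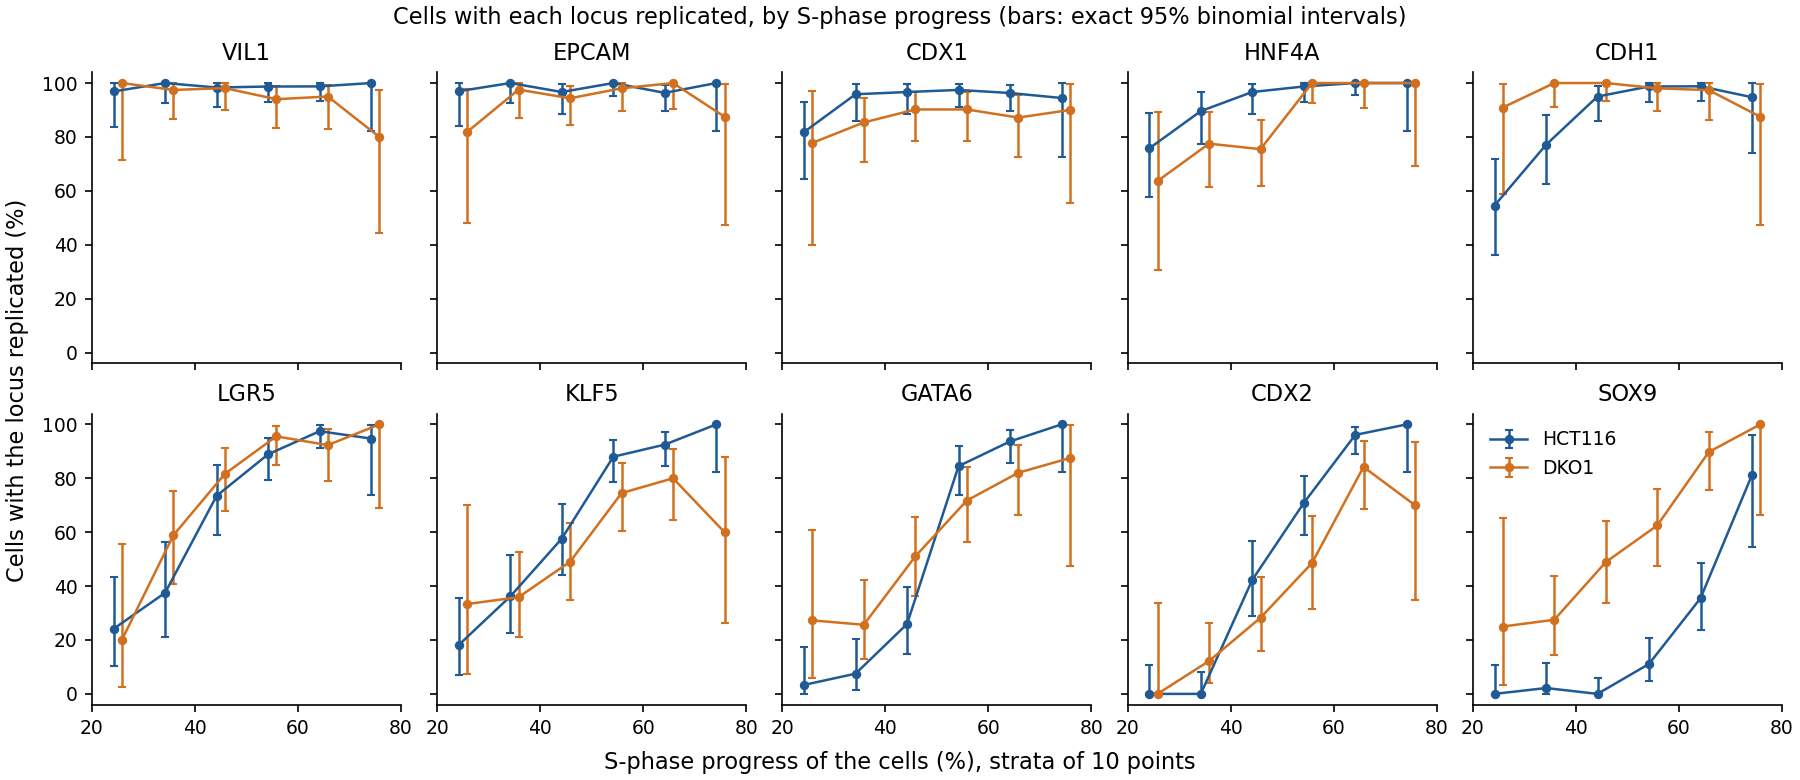
Percent of cells with the locus replicated (y axis) in each stratum of S-phase progress (x axis, %) for HCT116 (blue) and DKO1 (orange), with exact 95% binomial intervals as bars. Loci are ordered by their share in HCT116. The SOX9 points of DKO1 lie above those of HCT116 in every stratum, the curves of GATA6 cross, and VIL1 and EPCAM stay near 100% in both lines from 30 to 70% progress.

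The order of the loci was then read inside single cells. For each of the 45 pairs, the cells were counted in which 1 locus was replicated and the other was not. In HCT116 SOX9 was almost never ahead. It preceded CDX2 in 2 of 103 such cells (1.94%, 0.24 to 6.84%), GATA6 in 2 of 107 (1.87%, 0.23 to 6.59%) and KLF5 in 3 of 150 (2%, 0.41 to 5.73%). In DKO1 SOX9 preceded CDX2 in 43 of 57 cells (75.4%, 62.2 to 85.9%), and the order with GATA6 (35 of 68) and KLF5 (33 of 68) was close to even. SOX9 preceded VIL1 in 0 of 239 HCT116 cells, which allows up to 1.26%, and in 7 of 83 DKO1 cells (8.43%, 3.46 to 16.6%). SOX9 stayed behind CDH1 in both lines, ahead of it in 1 of 216 and 1 of 78 cells. The intervals of the lines lay apart for 8 of the 9 pairs with SOX9, and for 14 of all 45 pairs. Pairs of other windows of the genome were not counted, so how usual such counts are is not known.

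**Figure D5:**
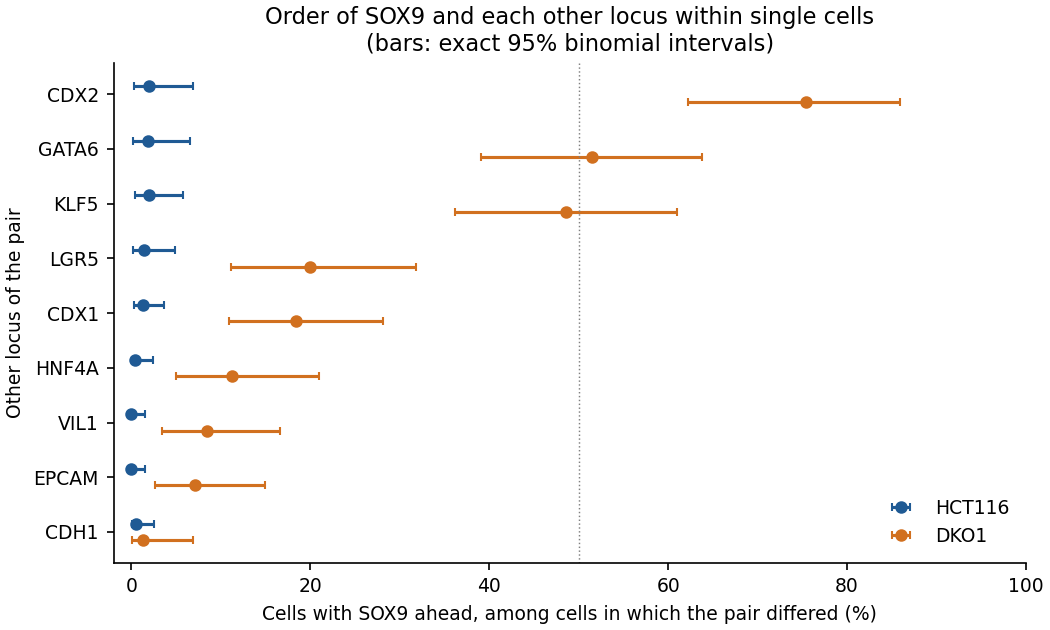
Percent of cells in which SOX9 was ahead (x axis), among cells in which SOX9 and the other locus (y axis) differed, in HCT116 (blue) and DKO1 (orange), with exact 95% binomial intervals. The dotted line marks 50%. All HCT116 points lie at 2% or below, and in DKO1 the point for CDX2 lies at 75.4% and those for GATA6 and KLF5 lie near the dotted line.

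Of the 36 pairs without SOX9 the intervals lay apart for 6, and in 4 of these the locus ahead in most cells changed between the lines. These 4 all involved CDH1, and the other 2 were LGR5 with CDX1 and with HNF4A. Where CDH1 and CDX1 differed, CDX1 was ahead in 27 of 37 cells of HCT116 (73.0%, 55.9 to 86.2%) and in 4 of 28 of DKO1 (14.3%, 4.03 to 32.7%). HNF4A was ahead of CDH1 in 28 of 39 and 3 of 28 cells, VIL1 in 33 of 37 and 4 of 13, and EPCAM in 33 of 39 and 4 of 12. The DKO1 intervals for VIL1 (9.09 to 61.4%) and EPCAM (9.92 to 65.1%) span 50%, so a turned order is not shown for these. None of the DKO1 cells with VIL1 or EPCAM unreplicated was well-called. The pair on chromosome 13 kept its order, with KLF5 ahead of CDX2 in 61 of 84 cells of HCT116 (72.6%, 61.8 to 81.8%) and in 51 of 71 of DKO1 (71.8%, 59.9 to 81.9%). The pairs share loci and cells and are not independent of each other, and their counts have no background over the genome.

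By the percent of cells in which 2 loci were in the same state, the locus most like VIL1 was EPCAM in both lines (97.5% of 317 HCT116 and 93.5% of 199 DKO1 cells, both on chromosome 2). This percent depends on how many cells had replicated each locus, and 2 early loci agree in most cells for that reason alone. The agreement due to these shares was not taken out, so likeness here does not show a link between loci. The locus most like CDX2 was GATA6 (81% of 273 and 68.9% of 167 cells), and the one most like SOX9 was CDX2 (61.4% of 267 and 65.5% of 165). The median over all 45 pairs was 70.2% in HCT116 and 61.6% in DKO1, and over the 36 pairs without SOX9 it was 75 and 62.4%. Among cells with all 10 loci called, the number replicated was higher in DKO1 early in S phase, with medians of 4 in HCT116 and 6 in DKO1 at 20 to 30% progress (25 and 5 cells) and of 5 and 6 at 30 to 40% (23 and 26 cells). The means there were 4.36 ± 1.11 and 5.4 ± 1.52, and 5.48 ± 1.12 and 6.23 ± 0.815 (SD over cells). At 40 to 50% the median was 7 in both lines, with means of 6.90 ± 1.02 and 7.38 ± 0.979 (39 and 29 cells). In that stratum SOX9 was replicated in none of 60 HCT116 and 22 of 45 DKO1 cells, and HNF4A in 58 of 60 and 40 of 53.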

How the data were processed

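What the authors deposited for the S-phase cells was 1 table with a score, the state code of 0, 1 or 2, for each 80 kb bin and cell; the column names give the line. Its name refers to binarised values of a hidden Markov model. Tools listed in the submitters' processing notes are SAMtools 1.10, bedtools 2.26.0 and Cell Ranger, and the builds are hg19 and GRCh37. For the model's software and the reads per cell, the entry is: not given in the sources used here. The G1 libraries were not analysed here.

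A bin was used when each line had at least 90% of its cells called there (27142 of 27704), and strata needed at least 5 cells of each line. Progress for logistic curves came from the chromosomes without the locus, and a 50% point is given where it lies within the cells' progress. With 1 library per line, no test was run. Every member is named. The members and lists were chosen with earlier results of these data known. Other intestinal genes listed for use with an hg19 annotation were not analysed. Scripts ran in Python 3.11.15 with NumPy 2.4.6 and SciPy 1.17.1 and were tested on simulated data. All 10 genes matched the RefSeq gene table by symbol and 4 the promoter table. Alternatives changed code 0, bins, flanks, strata and cells.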

Additional observations from a re-analysis of the deposited data

Results flagged for a closer look

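Code 0, which the comparisons leave out, took 2.12% of the DKO1 calls over the 66 bins of the loci and 0.635% of the HCT116 calls, 3.33 times as much. Over all used bins it took 2.40 and 0.794%. It was higher in DKO1 at 9 of 10 loci, the exception being VIL1 with 1.5% in HCT116 and 1.37% in DKO1. The table does not define the code.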

How the results depend on the processing

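No paired analysis was possible because each line has 1 S-phase library. Over the 10 loci, 98 of 103 alternative values of the difference in standardised share moved by less than its counting error, and no difference of at least 10 points changed sign. The size of this error is not given here, and the moves under it include KLF5 from -10.7 to -4.59. SOX9 stayed between 29.3 and 43.2 points. CDX2 ranged from -12.9 to -7.23 and KLF5 from -14.5 to -4.59, and each was at least 10 points in size under 4 of 10 settings. In well-called cells (code 0 at 1% of bins or less) from 30 to 70% progress, the standardised difference was 13.5 points at LGR5, 2.53 at CDH1, 0.11 at VIL1 and -0.60 at EPCAM. For all cells of these strata the 4 differences were 7.44, 5.64, -2.86 and -1.09, and the cause was not tested. The standardised difference changed sign at VIL1 in these well-called cells and at GATA6 without the stratum from 20 to 30% (-0.24). Shares of cells and 50% points in well-called cells had no limit on progress, and the share at VIL1 differed by 0 points. The difference in the share of cells changed sign at EPCAM, from -1.78 to 0.88 in well-called cells and 0.013 without outlying cells, and at GATA6, from -0.97 to 1.13 with all called bins replicated. Without the stratum from 20 to 30%, chosen after seeing the data, CDH1 was at 3.78. Where all called bins of SOX9 had to be replicated, the share of cells differed by 22.6 points, against 42.2 by the main rule. With a limit of 15 points, 1560 windows were higher and 1762 lower in DKO1, against 3591 and 3672 at 10 points. Bins called in at least 99% of cells gave values for SOX9, GATA6 and LGR5 only. None of the 15 alternative values of the 50% points changed the sign of the gap between the lines. In well-called cells this gap shrank from 4.38 to 1.55 points at CDX2, from 1.87 to 0.42 at KLF5 and from -3.68 to -1.28 at GATA6. The 10 to 11 DKO1 cells in the outer strata, and unknown depth, limit every value.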
